A study of Homo sapiens with 12 samples.

Results

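The footprint libraries of HEK293T cells at 360 min of GSK-A1 were compared with those at 0 min: 4 libraries, 2 replicates per time, of the 12 in the series. They were chosen by their titles and by no measured value, but with earlier results of these data known. That 360 min replicate 2 stands apart from the other footprint libraries was known beforehand. HEK293T is a transformed human embryonic kidney line, labelled wild type. GSK-A1 inhibits PI4KA, the lipid kinase that makes phosphatidylinositol 4-phosphate at the plasma membrane. All 12 treatment labels read GSK-A1, and only the titles mark the 0 min libraries as the start of the exposure. The other libraries, used below for the estimate of spread and for side values, were footprints at 60 min and mRNA at 0, 60 and 360 min, with 2 replicates each. The labels do not say that replicates came from separate cultures, so p-values measure the spread between these libraries, which may be technical.

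A translating ribosome shields a short stretch of its mRNA from nuclease, and the count of these ribosome-protected fragments (RPF) over a transcript follows both how much of the mRNA there is and how many ribosomes it carries. PI4KA supplies the lipid from which the plasma membrane makes phosphatidylinositol 4,5-bisphosphate, and the gradient of its product drives the delivery of phosphatidylserine to that membrane. The title of the series links this lipid exchange to RhoB, a small GTPase of the actin cytoskeleton. A footprint change hours after the inhibitor can therefore follow a change in mRNA level, in translation, or in both. Levels are given as CPM, counts scaled to each library's effective total (TMM), so a shift shared by all transcripts would not be seen.

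The files name transcripts by Ensembl identifier only, and the gene tables used here matched 0 of all 18338. Genes, gene classes and markers of the cell line were therefore not analysed, and the transcripts are described by their level, their replicates and their mRNA. No sequence is shown for the same reason.

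Replicates 1 and 2 of 0 min held 1165740 and 811913 counts. Those of 360 min held 825633 and 546547 counts. Of 17196 transcripts listed in any of them, 12646 were listed in all 4. The shallowest library, 360 min replicate 2, listed 15039 transcripts. Drawn down to its 546547 counts, the other 5 RPF libraries would list 13681 to 14379 transcripts, so it spread its counts over more transcripts than any of them. The lowest of these expected numbers was that of 360 min replicate 1. The replicates of 360 min were also the least alike of the 6 pairs among the 4 libraries. Over 4243 transcripts with 10 or more counts in every one of the 12 libraries, their Pearson correlation of log2(CPM + 1) was 0.839, against 0.929 for the 0 min replicates. Replicate 1 of 360 min correlated at 0.958 with 0 min replicate 1, which is closer than either time's own replicates were to each other.

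Replicate 2 of 360 min resembled some of the mRNA libraries more than any other footprint library did. Its correlation with mRNA 0 min replicate 2 was 0.785, while the other 5 RPF libraries lay between 0.650 and 0.682. Its correlations with mRNA 60 min replicate 1 and mRNA 360 min replicate 1 were 0.716 and 0.636, and those of 360 min replicate 1 were 0.595 and 0.545. With mRNA 60 min replicate 2 and mRNA 360 min replicate 2 it correlated at 0.652 and 0.601, where 360 min replicate 1 stood at 0.655 and 0.619. With mRNA 0 min replicate 1 it stood at 0.673, slightly above the 0.625 to 0.657 of the other 5. The larger part of the extra likeness thus lay with 3 mRNA libraries, 1 from each time, and followed neither the time nor the replicate number. These are correlations across transcripts, which are not independent replicates, and carry no p-value. Whether this library is mixed or mislabelled cannot be settled from these files, which bears on every 360 min value below. The part of this likeness in the results was not tested. The counts under an unadjusted threshold and the 4 transcripts named are given with and without the library; counts that need both 360 min libraries are not.

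**Figure D1:**
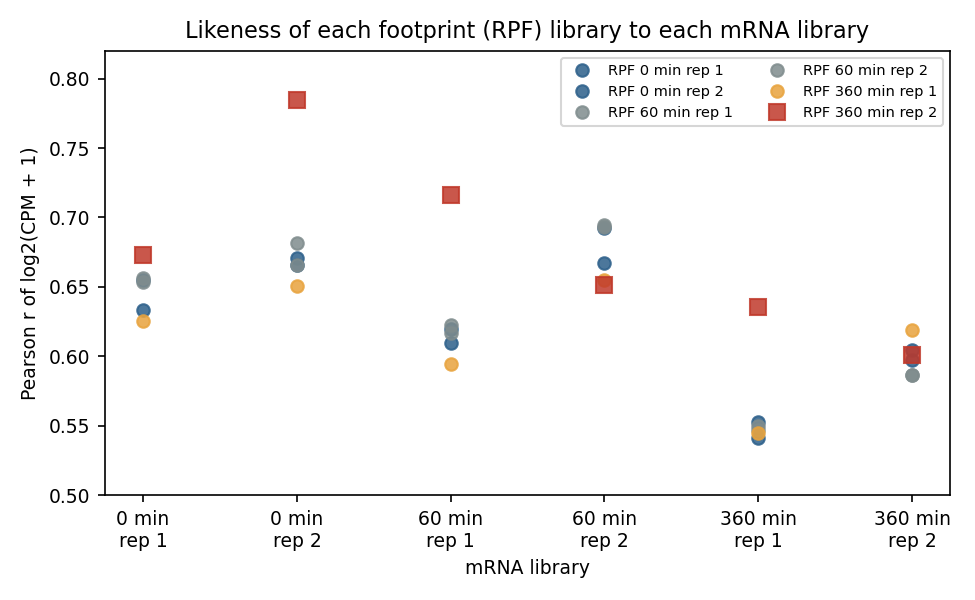
Pearson correlation of log2(CPM + 1) over 4243 transcripts (vertical axis) between each mRNA library (horizontal axis) and each RPF library (points). The red squares, RPF 360 min replicate 2, stand highest over mRNA 0 min replicate 2, at 0.785, and over the first replicates of 60 and 360 min.

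No transcript passed the test at 360 min against 0 min. edgeR's quasi-likelihood test was fitted to 9653 transcripts in all 6 RPF libraries, and 0 (0.0%) fell under 0.05 after Benjamini-Hochberg adjustment, with a smallest adjusted p-value of 0.9999. Before adjustment 377 transcripts (3.91%) lay under 0.05, of which 275 were higher (2.85%) and 102 lower (1.06%). DESeq2 called 1 transcript and 198 at the unadjusted threshold, and limma voom with sample weights called 0 and 213. With the replicate number as a block edgeR called 2 and 570, but the labels do not say what that number marks. The majority of higher values was kept with another scaling to effective totals (RLE), at 280 higher and 99 lower. With library totals alone the split was 128 higher and 179 lower, and the median log2 change of all transcripts was −0.12 in place of 0.02. The majority of higher values also depended on replicate 2 of 360 min. Without that library the split was 188 higher and 260 lower, with 1 transcript called, and without 360 min replicate 1 it was 898 higher and 504 lower, with 0 called. The lone 360 min library is assumed there to vary as the other groups do.

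The 2 replicate numbers shared little of their change. From 0 min to 360 min, the change in log2(CPM + 1) between libraries numbered 1 and that between libraries numbered 2, which have no library in common, correlated across the 9653 transcripts at a Pearson r of 0.00903 and a Spearman rho of 0.00876. At least 2-fold higher were 397 transcripts in replicate 1, 1115 in replicate 2 and 74 in both (0.767% of those tested). At least 2-fold lower were 511 in replicate 1, 769 in replicate 2 and 53 in both (0.549%). A further 115 were changed at least 2-fold in opposite directions. The SD of the difference between replicates was 0.995 at 360 min, 0.698 at 0 min and 0.688 at 60 min, on the same scale.

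**Figure D2:**
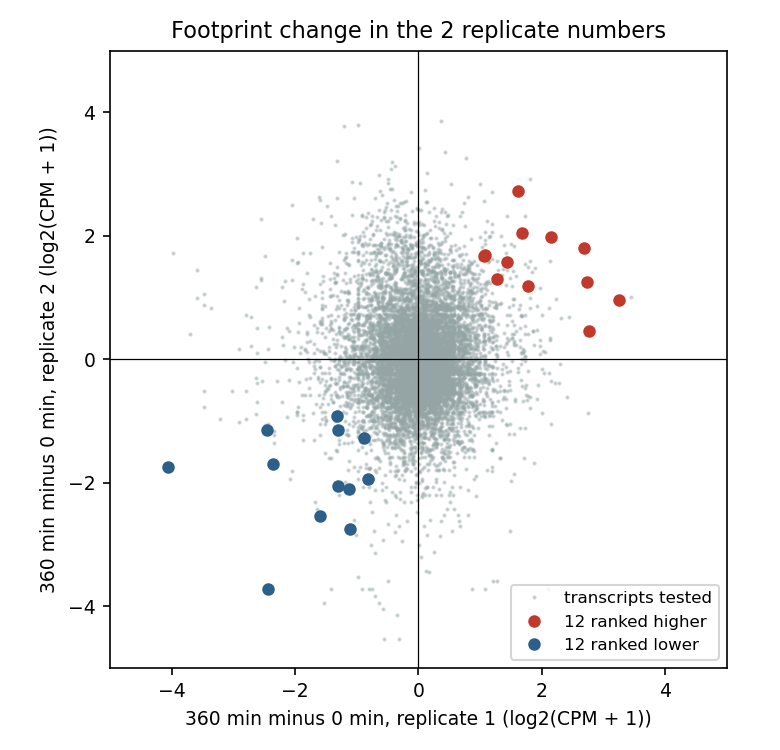
Change in footprint level from 0 to 360 min, as a difference of log2(CPM + 1), in replicate 1 (horizontal axis) and replicate 2 (vertical axis). Each grey point is 1 of 9653 transcripts, and the cloud has no slope (r = 0.00903). The coloured points are the 12 higher and 12 lower transcripts ranked first, which were picked from the 2 corners.

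The spread was largest in the rarest footprints, but the gap between the times held at every level. Transcripts were parted into 4 bins of equal size by mean level over the 4 libraries. In the lowest bin, with a median level of 14.1 CPM, the SD between replicates was 0.868 at 0 min and 1.202 at 360 min. In the highest, with a median of 144 CPM, it was 0.564 and 0.902. The direction of the unadjusted calls turned with level. Of the 2414 transcripts in the lowest bin, 28 were higher and 38 lower at an unadjusted edgeR p-value under 0.05 (2.73% together). In the second bin 72 were higher and 28 lower, and in the third 77 and 27. Of the 2413 in the highest, 98 were higher and 9 lower (4.43%). In that bin, 42 transcripts were at least 2-fold higher in replicate 1, 246 in replicate 2 and 9 in both. At least 2-fold lower were 14, 96 and 0. The bins used the 4 compared libraries, so a rise at 360 min itself moved a transcript toward a higher bin, and a fall toward a lower one. How much of the turn this makes was not tested. Both 360 min libraries lay above both 0 min libraries for 1313 of the 9653 transcripts (13.6%) and below them for 1336 (13.8%), so without regard to size the directions were almost equal in number.

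Few transcripts were listed in both libraries of 1 of the 2 times and in neither of the other, and all of them were rare. In both 360 min libraries but neither 0 min library, 174 transcripts were listed, with a median of 3 counts and at most 8 counts over the pair, and 106 of them were also listed at 60 min. In both 0 min libraries but neither 360 min library there were 307, with a median of 3 counts and at most 13, and 214 were also listed at 60 min. None of either kind had enough counts to be tested. The 0 min libraries were the deeper pair, at 1165740 and 811913 counts against 825633 and 546547 at 360 min. The part of depth in the gap between 307 and 174 was not tested.

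The transcripts that stood highest in this comparison were ranked by unadjusted p-value among those with a mean of at least 10 CPM at either time and replicates that did not overlap between the times. The first 12 in each direction are described, since none passed the test. The highest in rank was ENST00000370040. Its footprint counts were 123 and 106 at 0 min and 523 and 220 at 360 min, which are 113 and 117 CPM against 731 and 411 CPM. At 60 min it stood at 121 and 66.4 CPM, so only the 360 min libraries were high, and replicate 1 was the higher of them. The footprint log2 change of 2.31 (SE 0.460) had an edgeR adjusted p-value of 0.9999. Without 360 min replicate 2 the log2 change was 2.65 and the adjusted p-value 0.0350, which was the call counted above, and without replicate 1 it was 1.79. DESeq2 gave an adjusted p-value of 0.0148, and it was the transcript that DESeq2 called. With the replicate number as a block edgeR gave it an adjusted p-value of 0.0326. Its mRNA was at 23.1 and 43.7 CPM at 0 min and 78.6 and 28.4 CPM at 360 min, so the mRNA replicates overlapped between the times. In mRNA the log2 change of 0.64 (SE 0.800) had an edgeR adjusted p-value of 0.811.

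ENST00000397454 came next, with footprints at 16.6 and 13.3 CPM (18 and 12 counts) at 0 min and at 53.1 and 93.5 CPM (38 and 50 counts) at 360 min. Replicate 2 was the higher at 360 min, and at 60 min the libraries stood at 37.9 and 15.9 CPM. The log2 change of 2.26 (SE 0.499) in footprints had an edgeR adjusted p-value of 0.9999, and it was 1.80 without 360 min replicate 2. The mRNA of this transcript was at 8.99 and 36.4 CPM at 0 min and at 19.6 and 7.11 CPM at 360 min, from 4 to 25 counts. At 60 min its mRNA stood at 35.8 and 18.5 CPM, so the level was highest in 0 min replicate 2 and 60 min replicate 1. RPF 360 min replicate 2 resembled both of these libraries, and whether that bears on its footprint level was not tested. In log2(CPM + 1) the footprint change was 1.62 in replicate 1 and 2.72 in replicate 2. Translational efficiency (TE), the footprint level over the mRNA level, was tested in 1 model of both assays, and it stood 3.06 higher on the log2 scale (SE 1.02, edgeR adjusted p-value 0.858).

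Of the transcripts that stood lower, ENST00000520311 ranked first. It had 16 and 24 footprint counts at 0 min, 26 and 19 at 60 min, and 3 and 2 at 360 min. In CPM these are 14.8 and 26.6, then 28.1 and 27.4, then 4.19 and 3.74, and both late libraries lay below the 4 earlier ones. The summed level at 360 min was 0.199 of that at 0 min, with an exact 95% interval of 0.0612 to 0.504 that covers counting error only. edgeR gave a log2 change of −2.32 (SE 0.698) and an adjusted p-value of 0.9999, and −2.26 without 360 min replicate 2. Its mRNA was lower as well, at 16.7 and 14.6 CPM (13 and 10 counts) at 0 min and 2.81 and 1.78 CPM (1 count each) at 360 min, a ratio of 0.139 (0.0158 to 0.561). For mRNA edgeR gave a log2 change of −2.74 (SE 0.876) and an adjusted p-value of 0.558, and the log2 change in TE was 0.40 (SE 1.06), smaller than its SE.

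The transcript ranked second, ENST00000296575, went from 22.1 and 34.3 CPM (24 and 31 counts) at 0 min to 8.39 and 7.48 CPM (6 and 4 counts) at 360 min. It had been at 34.6 and 43.3 CPM at 60 min. The edgeR log2 change was −1.79 (SE 0.557; adjusted p-value 0.9999), and −1.73 without 360 min replicate 2. Its mRNA was too rare for the test, with 9 counts in each 0 min library and 2 and 1 at 360 min, a ratio of 0.266 (0.0501 to 0.910). The replicates of 360 min were close to each other in both lower transcripts, at counts too small to tell them apart. In all 4 transcripts the direction was kept when any 1 of the compared libraries was left out. Since they were chosen for replicates that did not overlap between the times, this followed from the choice.

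The remaining transcripts of the ranking had changes of the same order. Over the 12 higher, the footprint log2 change ran from 1.31 to 2.31 with a median of 1.89, and the counts per library from 7 to 523. Over the 12 lower it ran from −3.69 to −1.08 with a median of −1.91, and the counts from 0 to 140. The unadjusted p-values were between 0.000107 and 0.00312 for the higher and between 0.00408 and 0.0126 for the lower, and every edgeR adjusted p-value was 0.9999. At 60 min, both libraries stood below both 360 min libraries in 10 of the 12 higher transcripts, and above them in 12 of the 12 lower. Over all 9653 tested these shares were 17.5% and 17.95%, but the transcripts were chosen for extreme 360 min values, so nothing is read from the count. Both 60 min libraries lay beyond both 0 min libraries, toward the late level, in 4 of the 12 higher and 2 of the 12 lower. Over all transcripts tested 15.2% lay above and 15.98% below. The choice used the 0 min values too, so nothing is read from these counts either. Since the transcripts were picked for their small p-values, their changes tend to be overstated.

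**Figure D3:**
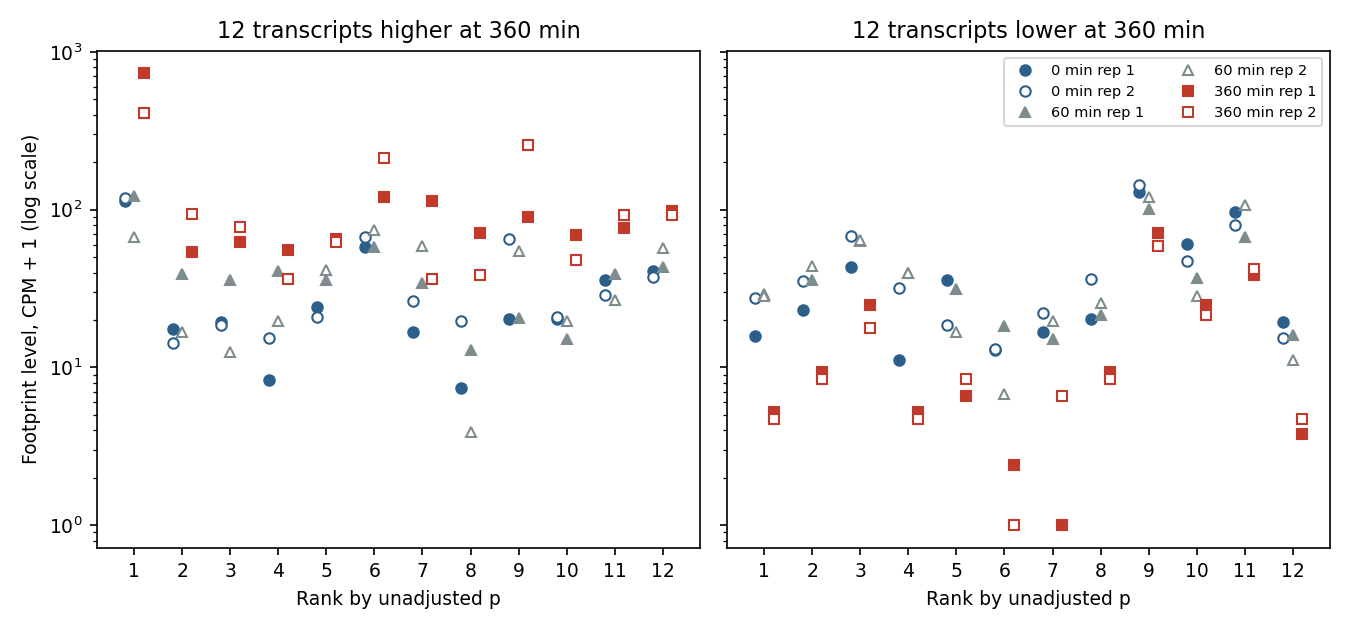
Footprint level (CPM + 1, log axis) of the 12 higher (left) and 12 lower (right) transcripts, in order of rank, in each RPF library; filled symbols are replicate 1 and open symbols replicate 2. Red squares (360 min) lie apart from blue circles (0 min) by the choice of transcripts, and grey triangles (60 min) lie on the 0 min side of both red squares in 10 of the 12 higher and all 12 lower.

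The mRNA libraries gave a readout that the ranking had not used. The ranking did use RPF 360 min replicate 2, which resembled some of the mRNA libraries. How far that likeness bears on the mRNA values below was not tested. All 12 higher transcripts were tested in mRNA, and 10 had a positive mRNA log2 change, with a median of 0.73 and a range from −0.83 to 2.47. Of the 8632 transcripts tested in both assays 47.5% were positive, and of the wider set of 275 described below 36.1% of the 255 tested were, with a median of −0.51. Of the 12 ranked higher transcripts, 1 had an unadjusted edgeR p-value under 0.05 in mRNA, where 8.92% of all tested in mRNA did. Only 7 of the 12 lower transcripts had enough mRNA counts for the test, and 5 had a negative change, with a median of −0.39. Over all 9693 transcripts tested in mRNA the median was −0.03, 0 (0.0%) passed an adjusted p-value of 0.05 in edgeR, and 865 (8.92%) were under 0.05 unadjusted, 479 higher (4.94%) and 386 lower (3.98%). With library totals alone that split turned to 266 higher and 608 lower, and without mRNA 0 min replicate 1 to 445 and 615. Without mRNA 360 min replicate 1 or 2 it was 548 and 639 or 343 and 420. DESeq2 called 19 in mRNA and voom 0. In TE, 11 of the 12 higher and 6 of the 7 lower tested had the direction of the footprint, which enters that ratio, and none passed. Over the 8632 transcripts tested in TE, 0 passed in edgeR and 489 (5.66%) were under 0.05 unadjusted, 330 higher (3.82%) and 159 lower (1.84%). The majority of higher values was lost without RPF 360 min replicate 2, at 188 higher and 201 lower, and without mRNA 0 min replicate 2, at 122 and 123. DESeq2 and voom called 0 there.

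The wider set of 377 transcripts under an unadjusted p-value of 0.05 differed between the replicates. The median level of the 275 higher transcripts was 34.1 and 29.9 CPM at 0 min, 35.7 and 34.6 CPM at 60 min, and 50.3 and 93.5 CPM at 360 min. Replicate 2 of 360 min was thus much the higher. The median change in log2(CPM + 1) was 0.64 between libraries numbered 1 and 1.66 between libraries numbered 2. These libraries were used in choosing the set, so the rise itself followed from the choice. The 102 lower transcripts were more even: their median level was 36.4 and 34.9 CPM at 0 min and 18.2 and 15.0 CPM at 360 min. The median change of these 102 was −0.98 between libraries numbered 1 and −1.30 between libraries numbered 2.

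In mRNA, the level of the same 275 transcripts differed between libraries in an order that was not that of time. Of them, 255 were tested in mRNA. Their median mRNA level was 87.4 CPM in 0 min replicate 2, 67.0 CPM in 60 min replicate 1 and 70.1 CPM in 360 min replicate 1. In 0 min replicate 1, 60 min replicate 2 and 360 min replicate 2 it was 47.5, 37.9 and 37.3 CPM, and the medians over all transcripts were 36.5 to 39.3 CPM. The first 3 are the libraries that RPF 360 min replicate 2 resembled. The 275 were chosen in part for their level in that footprint library, so this restates the likeness given above. The median mRNA change from 0 to 360 min was 0.53 between libraries numbered 1 and −1.24 between libraries numbered 2. At an unadjusted edgeR p-value under 0.05, 17 of the 255 were higher in mRNA (6.67%) and 16 lower (6.27%).

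**Figure D4:**
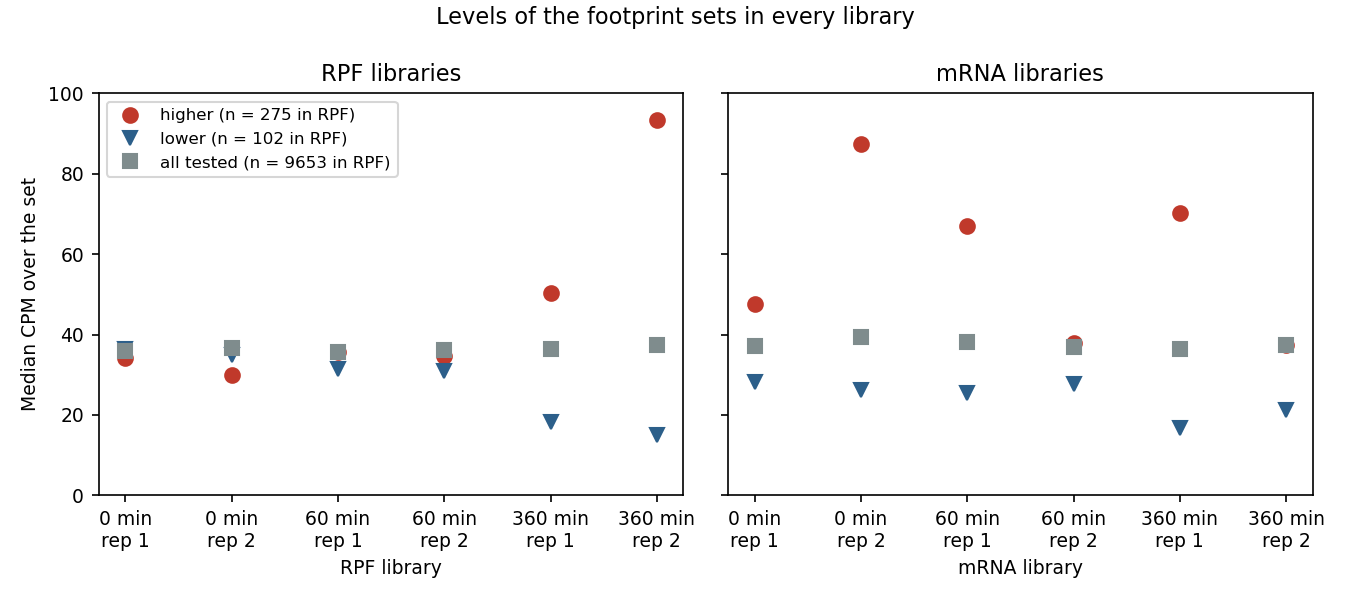
Median level (CPM) of the 275 higher, the 102 lower and all 9653 tested transcripts in each RPF library (left) and, for the 255, 79 and 8632 of them tested in mRNA, in each mRNA library (right). The higher set peaks in RPF 360 min replicate 2, at 93.5 CPM, and in mRNA 0 min replicate 2, at 87.4 CPM. It was chosen in part for its level in the first of these.

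The set chosen without 360 min replicate 2 behaved otherwise in mRNA. It held 188 transcripts higher in 360 min replicate 1, of which 154 were tested in mRNA. Their median mRNA level was 30.8 and 37.9 CPM at 0 min and 42.1 and 48.0 CPM at 360 min, so both late libraries stood above both early ones. The median mRNA change was 0.36 in replicate 1 and 0.28 in replicate 2, where the medians over all transcripts were −0.0136 and −0.00278. At an unadjusted edgeR p-value under 0.05, 23 of the 154 were higher in mRNA (14.9%) and 5 lower (3.25%), beside 4.41% and 4.17% of the 8632 transcripts tested in both assays. The 260 transcripts lower in 360 min replicate 1 had a median footprint level of 9.09 CPM there, and 211 were tested in mRNA. Their median mRNA change was −0.03 in replicate 1 and −0.46 in replicate 2, with 3 higher (1.42%) and 12 lower (5.69%). The 898 transcripts higher without 360 min replicate 1 had a median mRNA change of 0.51 in replicate 1 and −1.56 in replicate 2. In footprints this set stood at 28.7 CPM in 360 min replicate 1 and at 76.6 CPM in replicate 2. The 504 transcripts lower without 360 min replicate 1 had a median mRNA change of −0.31 and −0.17, and of the 439 tested in mRNA 4 were higher (0.911%) and 25 lower (5.69%). These sets were formed after the values were seen and are described without a test.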

How the data were processed

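For each library the deposited file lists raw counts by Ensembl transcript, whole numbers from 1 up, per the file headers and the values. The submitters' processing notes name cutadapt 2.8, Bowtie 1.2.3 and STAR 2.7.10a; the counting program, build, annotation, counted region and use of strand are not given in the sources used here. Per the labels' protocols, footprints were gel-selected at 25 to 35 nt; the same text then turns to capped small RNA and ends unfinished, so how the mRNA libraries were made is not given in the sources used here. Counts of near-identical transcripts or overlapping genes are uncertain. A transcript missing from a file was set to 0.

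The main fits used edgeR 4.0.16 in R 4.3.3 (filterByExpr, TMM, quasi-likelihood test, time as the only factor, all 6 libraries of an assay, 60 min included, in the filter, scaling and fit). TE was the assay by time interaction in all 12 libraries. DESeq2 1.42.0 and limma 3.58.1 voom were alternatives. P-values were adjusted by Benjamini-Hochberg with a threshold of 0.05. The SE is the log2 change divided by the square root of F. Differences between single libraries used log2(CPM + 1). The fits were tested on simulated data with less spread between replicates than edgeR estimated here. The common dispersions here were 0.0962 in footprints, 0.139 in mRNA and 0.110 in TE. No simulated library stood apart from its replicate, so that test does not show how the fits behave on these data. Replicates differed beyond sampling noise (chi-square per degree of freedom 9.20 at 0 min and 16.7 at 360 min). Library totals set the precision. Scaled to raw totals, without TMM, 3 counts are 2.57 CPM in the deepest RPF library and 5.49 CPM in the shallowest. On the TMM scale used for the levels above, 3 counts in the shallowest, 360 min replicate 2, are 5.61 CPM.

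Transcripts were ranked by the rule in the report: any past the threshold first, then up to 12 each way by unadjusted p-value, with at most 2 identifiers printed each way. The comparison, the rule and the 32 gene lists planned for it were chosen with earlier results of these data known. The lists, the levels planned for RHOB and PI4KA and the cell line markers were not computed, since 0 identifiers matched a gene name.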

Additional observations from a re-analysis of the deposited data

How the results depend on the processing

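After adjustment 0 transcripts were called in footprints, mRNA and TE. In footprints, 12 of the 15 alternatives also gave 0; DESeq2 gave 1, the replicate block gave 2, and leaving out 1 of the compared libraries gave 0 to 1. In mRNA, 89 passed without a filter on low counts (37 higher, 52 lower) and 19 with DESeq2, and the other 11 gave 0. In TE, 38 passed without a filter, all of them higher, and the other 13 gave 0. Leaving out RPF 60 min replicate 1 or 2 was added after seeing the data.

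The footprint transcripts under an unadjusted p-value of 0.05 numbered 377, and 649 without a filter, 247 with at least 10 counts in every library, 243 with the 4 compared libraries alone, 198 with DESeq2, 213 with voom, 570 with the replicate block and 1402 without 360 min replicate 1. In mRNA the 865 became 1491 without a filter, 453 with at least 10 counts in every library, 547 with DESeq2 and 408 without 0 min replicate 2. In TE the 489 became 1125 without a filter, 270 with voom, 853 without RPF 360 min replicate 1, 763 and 858 without mRNA replicate 1 of 0 or 360 min, and 245 without mRNA 0 min replicate 2. The cause was not tested, other than that unfiltered fits test more transcripts and that fits without a library or at a minimum count change the libraries or transcripts tested.

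The labels do not say what a replicate number marks. Differences between replicates 1 and 2 correlated at 0.285 between 0 and 360 min, 0.250 between 0 and 60 min and 0.219 between 60 and 360 min. With the replicate block, ENST00000370040 had a log2 change of 2.24 and an edgeR adjusted p-value of 0.0326; the ninth of the higher transcripts had 2.08 and the same adjusted p-value. The log2 changes of the 4 identifiers kept their direction in each alternative that tested them. Their choice for no overlap between the times made that all but certain. Other scalings of the gene lists were not run, as no list could be computed. At these depths, levels under about 3 counts per library cannot be told from 0.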
